A study of Homo sapiens with 8 samples.

Results

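The 82 genes described here encode the proteins of the cytosolic ribosome and their close copies, out of 20296 named genes on the array. A gene was a member if its symbol was RPL or RPS followed by a number, with or without an ending A, L, AL, X or Y, or was RPLP0, RPLP1, RPLP2 or RPSA. RPS6 kinase genes and pseudogenes were left out, and all members were found, 32 of the small subunit and 50 of the large subunit. Each gene was read from its brightest probe, of 157 probes in all, and 42 members had 1 probe only.

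RNA had been hybridised to 8 single-colour Agilent expression arrays, each from MCF10A cells, an established line of non-transformed human mammary epithelium. The cells were p53+/+ or p53-/-, and each genotype was harvested untreated at 0 h or at 12, 24 or 48 h after ADR (adriamycin, also called doxorubicin), a DNA-damaging anthracycline. Per the labels the exposure was 0.5 µg/ml for 2 h, whereas the methods of the study give a higher concentration. The labels name 1 p53+/+ and 1 p53-/- line, with 1 array for each genotype and time, so no time point had a replicate and the comparison addresses how p53 status alters the response to ADR.

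Ribosomal proteins assemble with ribosomal RNA into the subunits that translate mRNA, and their genes are among the most strongly transcribed in dividing cells. Most of their transcripts begin with a run of pyrimidines, the terminal oligopyrimidine (TOP) start, through which their translation is controlled together. Several free ribosomal proteins, such as RPL5 and RPL11, bind the ubiquitin ligase MDM2 and so stabilise p53, and RPS27L is a known direct target of p53 that encodes a near copy of RPS27.

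The starts of members that the results turn on are printed to show which of them carry a pyrimidine run. Each line is 30 bases, 10 before and 20 from the RefSeq transcription start of build GRCh38.p14, 5′ to 3′ on the gene's own strand. Capitals mark a run of C or T that opens with C at the first transcribed base and holds at least 4 more pyrimidines.
RPS27L (chr15:63157458-63157487, minus strand): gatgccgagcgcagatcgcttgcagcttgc
RPS27 (chr1:153990752-153990781, plus strand): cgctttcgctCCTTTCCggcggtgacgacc
RPL39 (chrX:119791611-119791640, minus strand): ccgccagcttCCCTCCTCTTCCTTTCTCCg
RPS19 (chr19:41860245-41860274, plus strand): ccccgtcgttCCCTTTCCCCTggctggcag
RPS24 (chr10:78033853-78033882, plus strand): aatcgtggttCTCTTTTCCTCCTTggctgt
RPL28 (chr19:55385922-55385951, plus strand): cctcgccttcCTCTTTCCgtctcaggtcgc
RPLP1 (chr15:69452808-69452837, plus strand): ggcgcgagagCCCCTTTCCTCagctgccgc
RPL3 (chr22:39319604-39319633, minus strand): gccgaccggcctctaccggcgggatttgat
RPL10A (chr6:35468391-35468420, plus strand): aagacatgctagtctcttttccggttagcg

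Of the 65 members with an entry in the RefSeq promoter table, 46 (70.8%) had such a start at 1 or more annotated starts, against 4.99% of 27240 other genes. RPS27L, whose first bases are gcagatcg, was among the 19 without one, as were the large-subunit genes RPL3 and RPL10A. In RPL10A a pyrimidine run begins a few bases after the annotated start, so the absence of a match says only that the letters do not stand at that base. RPL39L is among the 17 members with no entry. The median log2 difference between treated genotypes was 0.39 for the members with a pyrimidine start and 0.45 for those without.

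In the text a level is the log2 signal of a probe minus the 75th percentile of its array, a change is the level after ADR minus that of the 0 h array of the same genotype, and a difference is p53+/+ minus p53-/- at the same time. Every change in p53+/+ given here starts from the array labelled p53+/+ 0 h, and 2 readings of that array lay at the p53-/- level. MDM2, a p53 target, read -1.33, -2.04, -1.33 and -1.57 in p53-/- at 0, 12, 24 and 48 h, -1.66 for the array labelled p53+/+ 0 h, and 1.29, 1.49 and 1.76 in treated p53+/+. DCN, a fibroblast marker that supplied most of the summed signal of 7 markers of other cell types, likewise read 5.75 there, within the 5.70 to 6.07 of the p53-/- arrays and above the 2.09 to 2.37 of the treated p53+/+ arrays. The summed signal of these 7 markers was 52.4 to 67.5 times the 75th percentile in p53-/-, 54.4 for the array labelled p53+/+ 0 h and 4.54 to 5.47 in treated p53+/+, with 5 or 6, 5 and 3 of the 7 above background. Basal mammary markers were above background in 9 or 10 of 10 cases on every array, with sums of 224 to 252, 296 and 496 to 573. These marker sums move with every genotype difference described here, and their part in those differences was not tested. All arrays lay on 1 slide, with each genotype in 1 column of it, so slide position and p53 status cannot be told apart. On the p53+/+ 48 h array 0 of 10 spike-in control probes were above background, against 6 of 10 on every other array. Its 75th percentile signal was also the lowest, at 661. The effect of this on the p53+/+ values at 48 h was not tested.

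The ribosomal protein genes moved little as a group, and 3 members stood out from the rest. RPS27L was over 4-fold higher in p53+/+ than in p53-/- at every time after ADR, and RPL39L, a copy of RPL39, was over 3-fold lower. RPL27A, a large-subunit gene whose 1 probe read far below most members, was lower after ADR in both genotypes. The mean difference of the other 79 members was lowest for RPSA, at -0.05, and for RPS19, among the highest, it was 0.77. On the 0 h arrays the members differed by a median of -0.06, between -0.47 and 0.37, and 77 of 82 lay within 0.25 of 0.

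RPS27L had the highest mean change in p53+/+ of the 82 members, 2.81. Its level was 4.22, 4.32, 4.61 and 5.09 on the p53-/- arrays at 0, 12, 24 and 48 h, 4.29 for the array labelled p53+/+ 0 h, and 6.60, 7.24 and 7.44 on the p53+/+ arrays at 12, 24 and 48 h. All 3 treated p53+/+ arrays lay above all 4 p53-/- arrays, and in each genotype the level was higher at each later time. From the array labelled p53+/+ 0 h the rise was 4.98-fold at 12 h, 7.74-fold at 24 h and 8.89-fold at 48 h, and the p53-/- level at 0 h was within 0.07 of that starting value. In p53-/- cells RPS27L was at 1.08, 1.31 and 1.83 times its 0 h level. The direct ratio of p53+/+ to p53-/- was 4.85, 6.18 and 5.08 at 12, 24 and 48 h. In a limma fit over the 6 treated arrays, in which the times stood in for replicates, the difference was 2.42 (SE 0.31, adjusted p = 0.0044).

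RPS27, which encodes the other form of the same small-subunit protein, differed in the same direction by a much smaller amount, and this direction turned without scaling (-0.02). Its level was 8.51, 8.32, 8.39 and 8.29 in p53-/-, 8.45 for the array labelled p53+/+ 0 h, and 8.85, 8.82 and 9.06 in treated p53+/+. The treated genotypes did not overlap, with differences of 0.53, 0.43 and 0.77, but the limma difference of 0.58 (SE 0.17) had an adjusted p of 0.062. RPS27 and RPS27L are nearly identical in their coding sequence, and cross-hybridisation between their probes was not tested.

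RPL39L, a copy of RPL39 known best from testis and some tumours, showed the opposite pattern. Its level was 0.66, 0.98, 1.49 and 1.26 in p53-/-, 0.65 for the array labelled p53+/+ 0 h, and -0.74, -0.59 and -3.76 in treated p53+/+. The treated p53+/+ arrays were all below the p53-/- arrays, and the array at 48 h lay far below the other 2. That array was the one with 0 of 10 spike-in probes above background. The level in p53+/+ was lower than in p53-/- by 3.29-fold at 12 h, 4.24-fold at 24 h and 32.3-fold at 48 h, from 1 probe with 1 spot an array. The p53+/+ reading at 48 h was called above background but lay near it, which limits the last of these ratios. The limma difference was -2.94 (SE 0.82, adjusted p = 0.053), which missed the threshold of 0.05. Without the p53+/+ 48 h array the difference was -1.91 and passed it (adjusted p = 0.0085), and it also passed without both 48 h arrays (0.028). The limma difference missed the threshold without the 12 h arrays (adjusted p = 0.11) and without the 24 h arrays (0.20). RPL39L was called in 8 of 14 settings of the fit.

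RPL39 itself, a small protein of the ribosomal exit tunnel, had a level in p53+/+ that did not share the low values of its copy. Its level was 6.78, 6.75, 6.85 and 6.60 in p53-/-, 6.77 for the array labelled p53+/+ 0 h, and 7.08, 7.13 and 7.10 in treated p53+/+. Its 4 probes gave a mean difference between 0.33 and 0.38, opposite in sign to that of RPL39L under the main scaling, and its mean difference was 0.04 under quantile normalization and -0.23 without scaling.

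**Figure D1:**
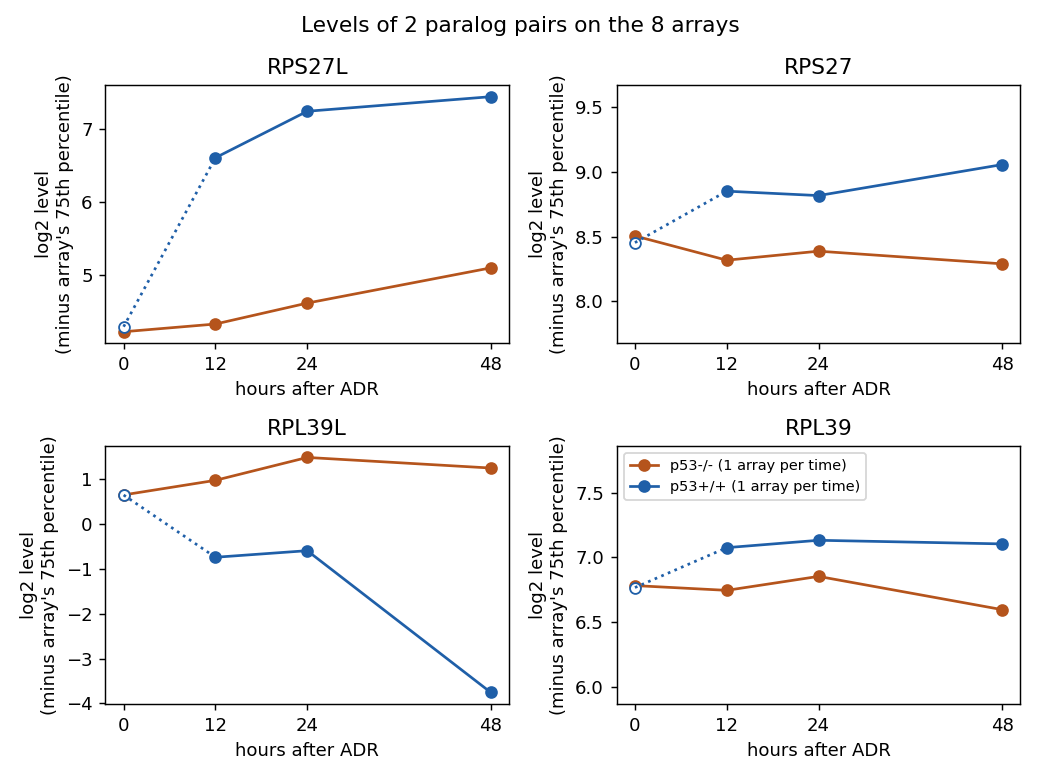
Log2 level (signal minus the 75th percentile of the array, y axis, a different range in each panel) against hours after ADR (x axis) for RPS27L, RPS27, RPL39L and RPL39 in p53-/- (orange) and p53+/+ (blue), 1 array per point with no error bar. The open circle and dotted line mark the array labelled p53+/+ 0 h, which read MDM2 at the p53-/- level; RPS27L climbs to 7.44 in p53+/+ while RPL39L drops to -3.76.

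RPL27A, a large-subunit gene, was the 1 member of 82 that was not well above background on all 8 arrays. Its level was -1.43, -1.92, -4.16 and -3.18 in p53-/-, -1.28 for the array labelled p53+/+ 0 h, and -2.73, -4.95 and -4.29 in treated p53+/+. It was lowest at 24 h in both genotypes and partly higher again at 48 h. At 24 h in p53+/+ it was not well above background. Set against the lowest level called above background, -4.50, that fall was 9.36-fold, which is not a strict bound. The median member had a mean level of 7.55, far above RPL27A on every array, the untreated ones included. Whether this probe reads the mature RPL27A transcript was not tested. The reading rests on 1 probe with 1 spot an array, and the limma difference between genotypes was -0.90 (SE 0.73, adjusted p = 0.44).

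By a rule of at least 2-fold at all 3 times, RPS27L was the 1 member that rose in p53+/+, against 7.94% of the 28947 probes tested, and RPL39L and RPL27A were the 2 that fell, against 5.78%. No member rose or fell that far at all times in p53-/- cells, against 2.64% and 1.84% of probes. At 12, 24 and 48 h in p53+/+ the count of 2-fold rises was 1 each, against 12.2%, 14.0% and 17.4% of probes, and that of falls was 2 each, against 9.98%, 13.8% and 11.6%. In p53-/- 0 members rose 2-fold at any time, against 4.21%, 8.58% and 12.7% of probes. None fell at 12 h (against 5.7%), RPL27A did at 24 h (1 member, against 5.24%), and RPL27A, RPL3 and RPL10A did at 48 h (3 members, against 7.59%). Between the treated genotypes the members at least 2-fold higher in p53+/+ were RPS27L at 12 and 24 h (1 member each, against 12.3% and 11.9%) and 4 members at 48 h (against 16.3%), among them RPS27L, RPS19 and RPL10A. Those at least 2-fold lower were RPL39L at 12 and 24 h (1 each, against 8.3% and 13.0%) and RPL39L and RPL27A at 48 h (2 members, against 13.5%).

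In the limma fit of genotype, 5 of 82 members passed the threshold as higher in p53+/+ and 0 as lower, against 10.6% and 7.4% of all probes. At an unadjusted p under 0.05 in either direction the count was 30 of 82, against 34.0% of probes, a share near the background. Among the 5 were RPS27L, RPS19, RPS24 and RPL28, of which RPS19 and RPS24 are mutated in Diamond-Blackfan anaemia, an inherited failure of red cell production. The fit of the interaction of genotype and treatment over all 8 arrays, which uses both 0 h arrays, called 0 members in either direction, against 0.94% and 0.746% of probes called higher and lower. At an unadjusted p under 0.05 it held 2 of 82 members, against 17.1% of probes.

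RPS19 read 7.67, 7.66, 7.75 and 7.54 in p53-/-, 7.71 for the array labelled p53+/+ 0 h, and 8.26, 8.45 and 8.55 in treated p53+/+. It changed little in p53-/-, and its rise of 0.56, 0.74 and 0.84 in p53+/+ was the largest among members other than RPS27L. Its difference was 0.77 (limma, SE 0.18, adjusted p = 0.030), and a second probe gave 0.94.

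RPS24 read 7.27, 7.19, 7.32 and 7.0 in p53-/-, 7.27 for the array labelled p53+/+ 0 h, and 7.79, 7.82 and 8.0 in treated p53+/+, with a difference of 0.70 (limma, SE 0.18, adjusted p = 0.044). RPL28, a large-subunit protein, read 6.95, 7.07, 7.0 and 6.86 in p53-/-, 7.31 for the array labelled p53+/+ 0 h, and 7.78, 7.66 and 7.59 in treated p53+/+. The limma difference of RPL28 was 0.69 (SE 0.17, adjusted p = 0.037), but the 0 h arrays already differed by 0.37 and its 3 probes above background disagreed, from -0.91 to 0.71. The calls of RPS19, RPS24 and RPL28 were all lost under quantile normalization, under scaling to the array median and without scaling, whereas RPS27L was called in 13 of 14 settings of the fit, lost without the 24 h arrays (adjusted p = 0.11).

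**Figure D2:**
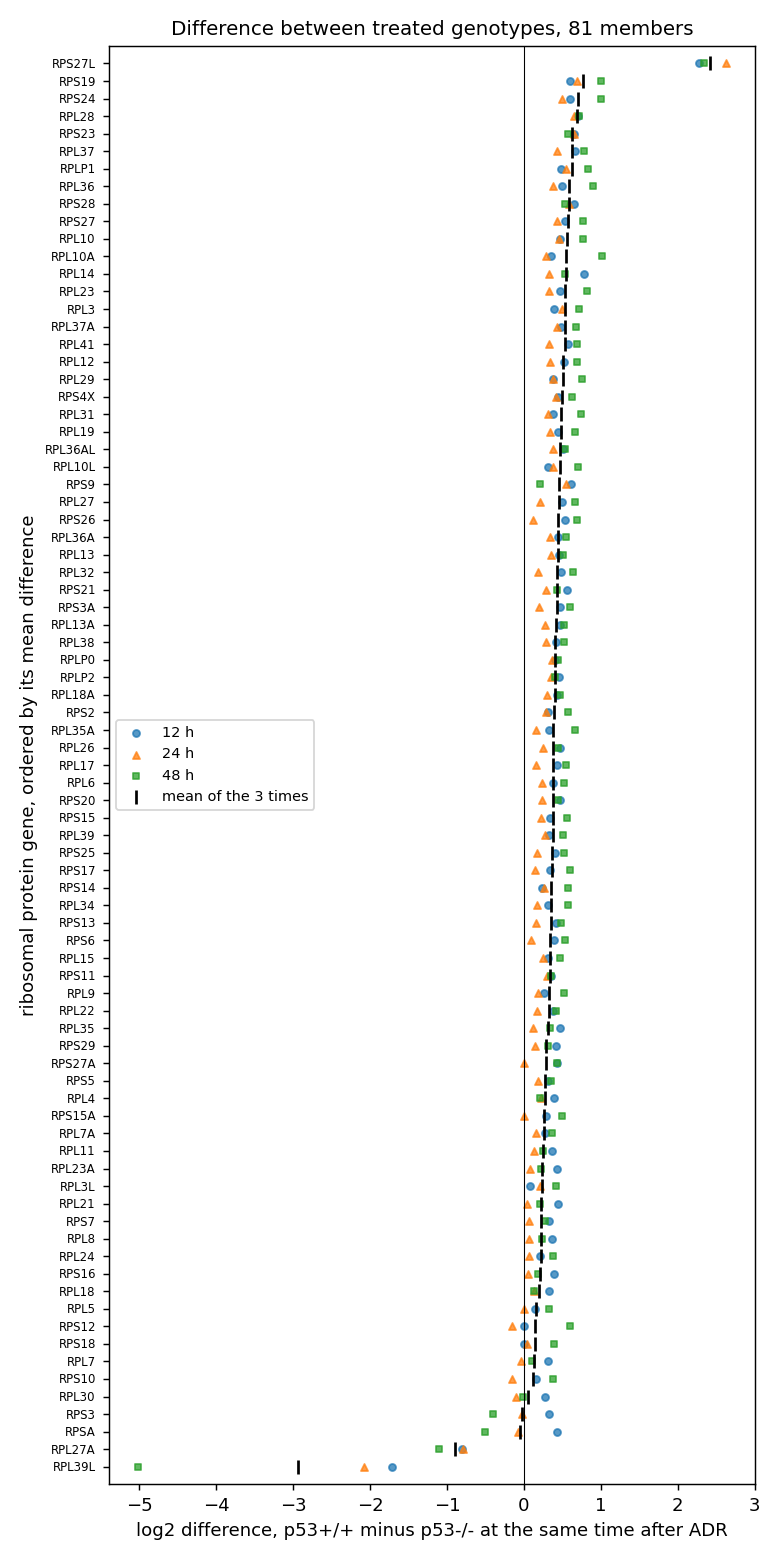
Log2 difference between p53+/+ and p53-/- at 12 h (circles), 24 h (triangles) and 48 h (squares) after ADR (x axis) for 81 of the 82 members (y axis), ordered by the mean of the 3 times (bar), with 1 array per genotype and time. RPS27L stands alone at the top with a mean of 2.42 and RPL39L at the bottom with -2.94, and most other members sit a little above 0 under this scaling.

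As a group the members shifted upwards in p53+/+ relative to p53-/- by an amount that depended on the scaling. With levels set to the 75th percentile the median difference of members was 0.42, 0.23 and 0.53 at 12, 24 and 48 h, beside 0.13, -0.02 and 0.18 for all probes. Relative to all probes the members were thus higher by 0.28, 0.25 and 0.34, a gap that setting the arrays to their medians or leaving them unscaled cannot alter. Under quantile normalization the gap was 0.04, 0.01 and -0.01, and after normexp background correction 0.11, -0.01 and 0.06. Without scaling, the median difference of the members themselves was negative at each time (-0.03, -0.25 and -0.33). Of the 82 members 79 had a mean level above 4, so the group sat among the bright probes of the array.

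For 51 members the 3 treated p53+/+ arrays lay above the 3 treated p53-/- arrays, against 25.1% of all probes, for RPL39L alone they lay below, against 16.4%, and 30 members overlapped. Under quantile normalization 8 members were above and 8 below, against 19.3% and 20.6% of probes, and without scaling 3 were above and 16 below, against 8.05% and 45.6%. Among 39 members with 2 or more probes above background on all arrays, 100 of 111 probes gave a mean difference above 0 under the main scaling. At the single times of 12, 24 and 48 h, 58.5%, 49.1% and 58.4% of all probes were above 0. The probes of a gene spanned a median of 0.20. Of 34 members named under the rule, the mean difference was above 0 under all of 5 settings (the 75th percentile, the array median, no scaling, quantile and normexp) for 6, namely RPS27L, RPS19, RPS24, RPL28, RPLP1 and RPS23, and below 0 under all for 4, namely RPL39L, RPL27A, RPS3 and RPSA. For the other 24 the sign depended on the setting. These signs are those of the brightest probe. Under the main scaling the 2 RPS23 probes gave 0.63 and -0.08, and the 4 RPSA probes ran from -0.37 to 0.22.

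**Figure D3:**
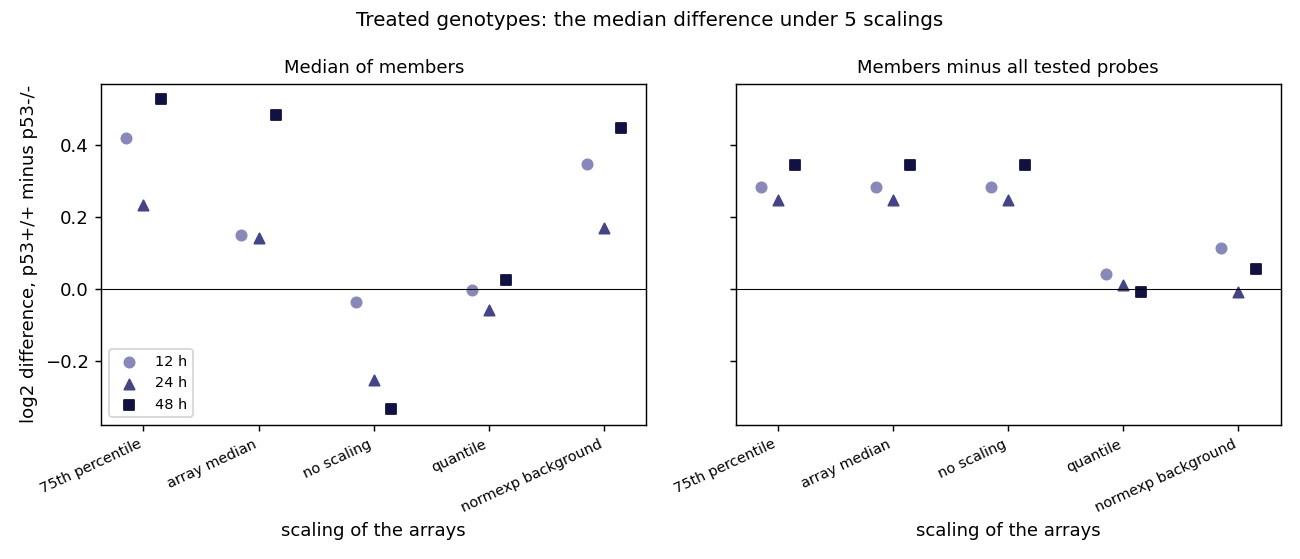
Median log2 difference between treated p53+/+ and p53-/- (y axis) at 12 h (circles), 24 h (triangles) and 48 h (squares) under 5 scalings of the arrays (x axis), for the 82 members (left) and for the members minus all tested probes (right). On the left the values change sign without scaling, and on the right the gap of 0.25 to 0.34 nearly closes under quantile normalization and normexp.

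After ADR the levels in p53-/- drifted down with time. The median change of members was -0.15, -0.25 and -0.38 at 12, 24 and 48 h, beside -0.06, -0.03 and 0.00 for all probes, and 0.19, 0.12 and 0.06 without scaling. Of 82 members 71 were below their 0 h level at all 3 times, against 34.7% of probes, and 55 were lower at each later time, against 11.9%. Relative to all probes the shift was -0.09, -0.22 and -0.38, which became -0.02, -0.06 and -0.08 under quantile normalization and 0.02, -0.14 and -0.24 after normexp.

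In p53+/+ the median change from the array labelled p53+/+ 0 h was 0.33, 0.02 and 0.17, beside 0.09, -0.04 and 0.20 for all probes. With the main scaling the members' median was highest at 12 h. Of 82 members 76 were lower at 24 h than at 12 h, and 61 were higher at 48 h than at 24 h. These counts are given without a share of all probes, whose median also fell and rose between these times. Without scaling the members' median change was 0.02, -0.30 and -0.45, and under quantile normalization it was 0.00, -0.12 and -0.10. Above the 0 h array at all 3 times were 44 members, against 38.1% of probes, and 0 fell at every step, against 6.47%. With the p53-/- 0 h array as the start the count was 35 and the median change 0.28, -0.04 and 0.12. Above in p53+/+ and below in p53-/- at all times were 35 members, against a background of 12.5%.

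**Figure D4:**
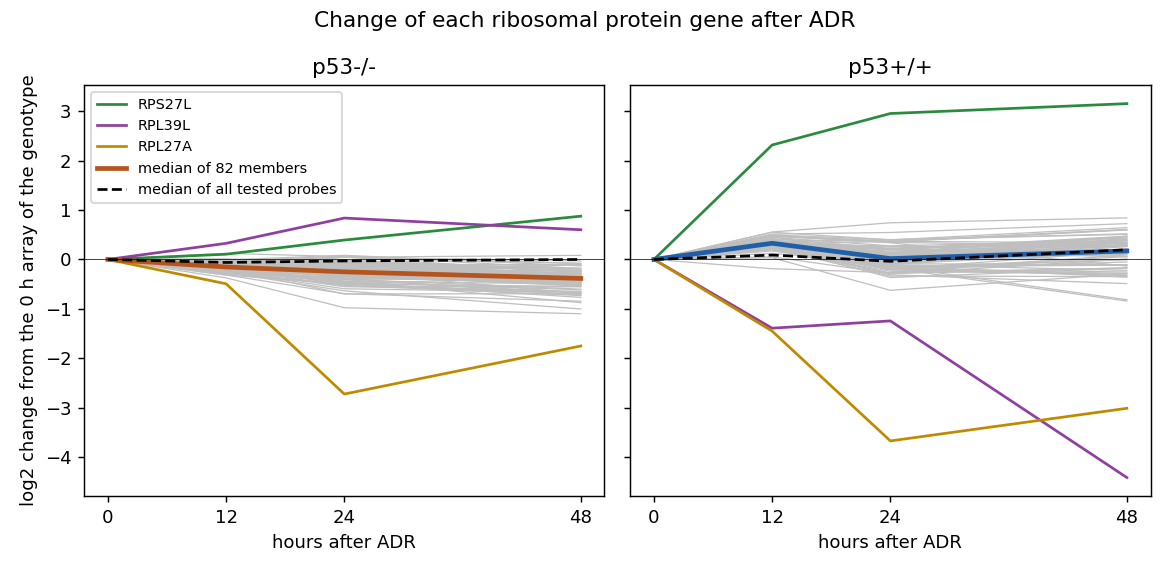
Log2 change from the 0 h array of the genotype (y axis) against hours after ADR (x axis) in p53-/- (left) and p53+/+ (right, from the array labelled p53+/+ 0 h). Grey lines are the single members, coloured lines the 3 named ones, the thick line the median of 82 members and the dashed line the median of all tested probes, with 1 array per point; the members reach a median of -0.38 in p53-/- and 0.17 in p53+/+ at 48 h.

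The members with the lowest mean change in p53-/- were RPL27A, RPL3 and RPL10A of the large subunit and RPS23 of the small subunit. RPL3, which lies near the peptidyl transferase centre, read 7.65, 7.28, 6.68 and 6.56 in p53-/-, 7.45 for the array labelled p53+/+ 0 h, and 7.68, 7.17 and 7.28 in treated p53+/+. RPL10A, another large-subunit protein, read 7.85, 7.58, 7.21 and 6.84 in p53-/-, 7.70 for the array labelled p53+/+ 0 h, and 7.94, 7.50 and 7.86 in treated p53+/+. Both were lower at each later time in p53-/-, whereas the changes in p53+/+ were 0.23, -0.28 and -0.17 for RPL3 and 0.24, -0.20 and 0.17 for RPL10A, and the treated genotypes overlapped for each. The limma differences of RPL3 and RPL10A were 0.54 (SE 0.26, adjusted p = 0.20) and 0.55 (SE 0.25, adjusted p = 0.18). RPS23, a small-subunit protein of the decoding centre, changed by -0.31, -0.69 and -0.84 in p53-/- and by 0.25, -0.13 and -0.36 in p53+/+. RPS20 had the highest mean change in p53-/- after RPS27L, RPL39L and RPL28, with -0.06, 0.05 and 0.08.

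Of the 9 members known to bind MDM2 or p53 and so to act in the nucleolar stress response, only RPS27L passed the limma threshold as higher, 1 of 9 against 10.6% of probes. Relative to all probes the list had a median of -0.06 in p53+/+, -0.29 in p53-/- and 0.25 between treated genotypes, beside 0.09, -0.23 and 0.29 for all members. Under the main scaling the treated arrays did not overlap for 4 of the 9 (RPS27L, RPS27, RPL23 and RPL26), all higher in p53+/+, and overlapped for 5. This compares with 51 of all 82 members and 25.1% of probes that lay higher. RPL5 changed by -0.19, -0.70 and -0.69 in p53-/- and by 0.03, -0.62 and -0.29 in p53+/+, so it was below the 0 h array from 24 h in both genotypes. RPL11, its partner in the 5S ribonucleoprotein, changed by -0.22, -0.31 and -0.54 in p53-/- and by 0.22, -0.10 and -0.22 in p53+/+. RPL23 read 8.19, 7.97, 7.80 and 7.81 in p53-/-, 8.16 for the array labelled p53+/+ 0 h, and 8.44, 8.13 and 8.63 in treated p53+/+, with a limma difference of 0.54 (SE 0.20, adjusted p = 0.11). RPL26 differed by 0.47, 0.24 and 0.44, RPS7 by 0.33, 0.07 and 0.28, and RPS14 by 0.24, 0.26 and 0.57.

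RPS3, also known from DNA repair, and RPSA, also known as the laminin receptor, are small-subunit proteins that had the lowest differences apart from RPL39L and RPL27A. RPS3 read 5.67, 5.62, 5.45 and 5.16 in p53-/-, 5.60 for the array labelled p53+/+ 0 h, and 5.95, 5.43 and 4.76 in treated p53+/+. RPSA read 7.34, 7.21, 7.15 and 6.90 in p53-/-, 7.21 for the array labelled p53+/+ 0 h, and 7.63, 7.08 and 6.4 in treated p53+/+. Both were higher in p53+/+ than in p53-/- at 12 h and lower at 48 h, where the p53+/+ array had 0 of 10 spike-in probes above background. The limma differences of RPS3 and RPSA were -0.03 (SE 0.33, adjusted p = 0.96) and -0.05 (SE 0.33, adjusted p = 0.94). RPS16, RPS10 and RPL30 also had small mean differences, of 0.21, 0.12 and 0.05.

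The stalk proteins RPLP0, RPLP1 and RPLP2, which recruit translation factors to the large subunit, moved together. With the main scaling all 3 were above the array labelled p53+/+ 0 h at each time in p53+/+. In p53-/- they were below 0 h at each time. Both held for 35 of all 82 members and 12.5% of probes. The treated arrays did not overlap for any of the 3, with p53+/+ higher, against 51 of all 82 members and 25.1% of probes. RPLP1 read 7.87, 7.78, 7.75 and 7.59 in p53-/-, 7.90 for the array labelled p53+/+ 0 h, and 8.26, 8.30 and 8.42 in treated p53+/+. Its limma difference was 0.62 (SE 0.17, adjusted p = 0.050, just above the threshold), and those of RPLP0 and RPLP2 were 0.41 and 0.40, which became -0.19 and -0.19 without scaling. RPL41, the smallest ribosomal protein, differed by 0.57, 0.33 and 0.69, and RPS6, the substrate of S6 kinase, by 0.39, 0.10 and 0.54. Of the 19 Diamond-Blackfan anaemia genes the treated arrays did not overlap for 13 under the main scaling, with p53+/+ higher. This compares with 51 of all 82 members and 25.1% of probes. RPS19 and RPS24 were the 2 of 19 that passed the limma threshold, against 10.6% of probes.

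The other paralog pairs showed no split like that of RPL39 and RPL39L. RPL36A and RPL36AL differed by 0.44 and 0.47 on average and RPL10 and RPL10L by 0.56 and 0.46, in the same direction at each time. RPL10L is known as a testis gene, and whether its probe reads RPL10 transcripts was not tested. RPL3L, known from muscle, read between -3.72 and -3.14 on all arrays and differed by 0.08, 0.22 and 0.41. RPL22, which has a regulatory copy in RPL22L1, changed by -0.32, -0.49 and -0.55 in p53-/- and by 0.20, -0.19 and 0.00 in p53+/+. RPL22L1, outside the naming rule, read 6.70, 6.24, 5.37 and 4.84 in p53-/-, 6.59 for the array labelled p53+/+ 0 h, and 6.37, 4.07 and 5.56 in treated p53+/+, so it was below 0 h in both genotypes.

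Other genes of translation were read beside the members. The 17 translation genes with a known TOP start, such as the elongation factor EEF1A1, had a median relative to all probes of -0.03 in p53+/+, -0.32 in p53-/- and 0.15 between treated genotypes, with 1 called higher and 0 lower by limma, against 10.6% and 7.4% of probes. The 74 mitochondrial ribosomal protein genes, which serve the separate ribosome of that organelle, had -0.26, 0.22 and -0.23, with 3 called higher and 1 lower, against the same shares. The signs of the cytosolic members, 0.09, -0.23 and 0.29, were thus opposite to those of the mitochondrial genes under the main scaling. No test of the difference between the lists was made. The 6 ribosomal protein genes outside the naming rule, among them RPL7L1, RPL22L1, RPL26L1, FAU and RACK1, had -0.22, 0.02 and 0.05, with 0 called in either direction.

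The error of a reading could be gauged only within an array. The RPS6 and RPL30 probes, each spotted 10 times, had an SD over spots of 0.042 to 0.12, which gives a technical SD of 0.12 for a change read from 1 spot. Many of the members' changes were only a few times this value, which leaves out variation between cultures, labelling and arrays.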

How the data were processed

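The deposited files were scanner output of Agilent Feature Extraction (version 10.7.3.1) for 8 single-colour arrays, and the authors' processed signal is a background-subtracted intensity of each spot. The authors' table of the series held the same intensity values and was used as a check only (503808 of 503808 equal within a relative tolerance of 0.0001). Control and outlier spots were left out, spots of a probe averaged, and log2 of the intensity taken minus the 75th percentile of each array. Probes were named through RefSeq accessions, and 28947 probes above background on at least 1 array were tested. With 1 array for each genotype and time, limma (version 3.58.1, R 4.3.3) compared genotypes over the 6 treated arrays, and genotype by treatment over 8 arrays, with Benjamini-Hochberg adjustment over all probes and a threshold of 0.05. A size rule of 2-fold described single times. P-values measure the spread between times, which is not a replicate error. The number of arrays limits the precision.

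Named members were those with a fixed known role, the 5 highest and lowest by difference between treated genotypes, the 4 highest and lowest by change in each genotype, those past the size rule at all times, and those not above background on every array. Genes outside this rule were named from small counts after their values were seen. The members and lists were chosen with earlier results of these data known. Alternatives were quantile, median and no scaling, centring on the members, normexp background correction (offset 50), other filters on dim probes, averaging the probes of each gene, a 1.5-fold rule, the p53-/- 0 h array as baseline, the time as a block and leaving out arrays. The comparison of array overlap across scalings, and the counts from the p53-/- 0 h start, were added after seeing the data. The procedure was tested on simulated data. Python 3.11.15 was used for summaries. Some genes are not reported here.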

Additional observations from a re-analysis of the deposited data

Results flagged for a closer look

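RPL39L changed in opposite directions in the genotypes at all 3 times, each time by more than 2 technical SDs. Its mean change in p53+/+ minus that in p53-/- was -2.94, from the array labelled p53+/+ 0 h. The technical SD came from 2 bright probes, RPS6 and RPL30. RPL39L was read at much lower levels, so this SD does not measure its error. The difference was not tested with replicates, since each time had 1 array, and the interaction fit did not call it. For RPL39 the array labelled p53+/+ 0 h stood apart from the other p53+/+ arrays, with a gap of 0.844 of their range, above Dixon's 95% critical value for 4 samples. The 4 arrays differ in treatment time, and chance alone marks about 1 in 20 such groups.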

How the results depend on the processing

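The members' median relative to all probes kept its sign in p53-/- and between treated genotypes, but not in p53+/+. It was -0.0458, -0.0548 and 0.016 in p53+/+, p53-/- and between treated genotypes under quantile normalization (0.0901, -0.232 and 0.2915 in the main setting), -0.0704 in p53+/+ and 0.0534 between genotypes after normexp, and -0.1336 and 0.087 with no filter on dim probes. The limma fit called 5 members higher in the main setting and 1, RPS27L, under quantile, median, no or member-centred scaling or with the time as a block, 17 after normexp, 11 with only probes above background on all 8 arrays and 10 with no filter. Leaving out arrays gave 0 to 1 member higher, with 0 without the 24 h arrays. It called 0 lower in the main setting and 1, RPL39L, under median, no or centred scaling, normexp and both filters, and 1, RPL27A, with the time as a block, and leaving out arrays gave 0 to 1. Adjusted p over the alternatives ran from 0.0008 to 0.11 for RPS27L and from 0.0064 to 0.20 for RPL39L. With the p53-/- 0 h array as baseline for both genotypes the interaction fit called 5 members, since it then holds the same contrast as the genotype fit.

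Counts past the size rule also moved. They are given without the share of all probes under each setting, so they cannot be set against a background. A 1.5-fold rule gave 2 and 7 rises and 4 falls in p53+/+ (24 and 48 h, then 48 h), 1 and 2 rises and 6 and 17 falls in p53-/- (24 and 48 h), 10, 6 and 28 members higher at the 3 times and 2 and 2 lower at 12 and 24 h. No scaling gave 5 falls in p53+/+ at 48 h, 1 and 2 rises in p53-/- at 24 and 48 h and 1 fall at 48 h, 1 higher at 48 h, and 2, 2 and 4 lower. Centring on the members gave 4 falls in p53+/+ at 48 h, 1 and 1 rises and 1 fall in p53-/-, 1 higher at 48 h and 2 lower at 12 h. Quantile normalization gave 1 fall in p53-/- and 1 higher at 48 h, median scaling 2 higher at 48 h and 2 lower at 12 h, and normexp 2 higher and 1 lower at 48 h. With only probes above background on all arrays, which leaves out RPL27A, falls were 1 at each time and at all 3 in p53+/+ and 0 at 24 h in p53-/-, with 1 lower at 48 h. Averaging a gene's probes gave 3 falls in p53-/- at 24 h. The causes were not tested.

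No paired analysis was possible because each genotype and time had 1 array and so no replicate numbers to pair, other than by time, which is the fit with the time as a block (1 member higher and 1 lower). Signal near background limits RPL27A, RPL3L and the p53+/+ 48 h reading of RPL39L. Results that start from the array labelled p53+/+ 0 h rest on an array that read MDM2 and DCN at the p53-/- level.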
